A study of Mus musculus with 3 samples.

Results

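The EGR and NR4A families were followed through mouse dorsal skin as 6 genes, Egr1, Egr2, Egr3, Nr4a1, Nr4a2 and Nr4a3, taken by name from the 32285 genes of the deposited matrices. All 6 were found, and each was measured in every library. Skin cells were sequenced from their 3' transcript ends in droplets, as 1 library for each of 3 conditions. CON is skin without irradiation that received vehicle, UV is skin exposed to mixed UVA (0.60 mW/cm2) and UVB (3.5 mW/cm2) on alternate days over 12 weeks, with vehicle, and Rux is skin given the same exposure and, right after each irradiation, a 1.5% ointment of ruxolitinib, an inhibitor of the kinases JAK1 and JAK2. All mice were labelled wild-type C57BL/6J females of 8 weeks, which is the age given for them at purchase, before the weeks of exposure. Skin was taken 24 h after the last exposure and made into a cell suspension at once. The number of mice behind a library is not given in the sources used here.

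EGR proteins are zinc-finger transcription factors and NR4A proteins are orphan nuclear receptors. Genes of both families are immediate-early genes, whose transcription starts within minutes of a growth factor, cytokine or stress signal and needs no new protein. Serum response factor and its ELK and MRTF partners drive EGR genes, CREB-family factors at cyclic AMP response elements drive NR4A genes, and the NAB proteins bind EGR factors and restrain them. EGR2 is also a lasting regulator of myelination in Schwann cells, EGR3 acts in muscle spindles and lymphocytes, NR4A1 and NR4A3 are induced by antigen receptors, and NR4A2 is best known from dopamine neurons. Enzymatic dissociation of a tissue is itself a stimulus that induces immediate-early genes, so the levels here are those of cells after dissociation.

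Levels were summed UMI counts of a cell class in a library, a UMI being the tag that marks 1 captured transcript, scaled so that all genes of that class in that library share the same total (CPM). With 1 library per condition there was no replicate, no test and no p-value. Intervals are exact 95% intervals (Poisson for a level, conditional binomial for a ratio, Clopper-Pearson for a share of cells), and they cover counting error only. A level is compared across classes and libraries within a gene and not between genes.

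The libraries held 13170, 12411 and 11287 cells in CON, UV and Rux, of which 10885, 10327 and 9386 were kept, with a median of 7568, 7661 and 9443 UMIs per kept cell. Between 23 and 35 kept cell barcodes were shared by any pair of libraries. The female label was not borne out, since the female-specific transcript Xist had 0.0912, 0.118 and 0.111 CPM in CON, UV and Rux (13, 14 and 13 UMIs) and the Y-linked gene Ddx3y had 110, 115 and 122 CPM. All 3 libraries went against the label alike. Cells were named from marker genes as fibroblast-like (FB-like), basal keratinocyte-like (KB-like), hair follicle-like (HF-like), lymphatic and vascular endothelial-like (LEC-like, VEC-like), pericyte-like (PCY-like), lymphocyte-like (LYM-like), myeloid-like (MYE-like) and Schwann-like (SCH-like) cells. These 9 classes had at least 100 cells in each library and carry the comparisons. The genes of the 2 families and of the immediate-early and dissociation lists were kept out of the clustering, so that they did not define the classes. A further 3468, 2331 and 1469 cells stayed unnamed.

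Egr2 lies on chromosome 10 (67535475 to 67542188, forward strand), Egr3 on chromosome 14 (70077203 to 70082614, forward), Nr4a1 on chromosome 15 (101254269 to 101274795, forward), Nr4a2 on chromosome 2 (57106830 to 57124003, reverse) and Nr4a3 on chromosome 4 (48045153 to 48086447, forward), all in GRCm38. Egr1 and Egr3 have no promoter printed here.

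The bases before the RefSeq start of 4 members are shown because the cyclic AMP response element (CRE) half-site, the element through which CREB-family factors act on NR4A genes, recurs in them. They are written 5′ to 3′ on the strand of the gene in build GRCm38.p6, with each half-site (TGACG, or CGTCA on the opposite strand) in capitals. The windows are chr10:67537619-67537868 for Egr2, chr15:101266596-101266845 for Nr4a1, chr2:57124004-57124253 for Nr4a2 and chr4:48045055-48045152 for Nr4a3, where the last was ended at 98 bases because an annotated exon begins there and the others hold 250 bases. The windows of Egr2 and Nr4a1 lie inside the annotated span of the gene, outside its exons and upstream of a later start. RefSeq gives Egr2 5 windows, and the one shown starts at an annotated transcript and overlaps no exon. The RefSeq start of Nr4a3 lies downstream of where that exon begins and matches no annotated transcript start.
Egr2: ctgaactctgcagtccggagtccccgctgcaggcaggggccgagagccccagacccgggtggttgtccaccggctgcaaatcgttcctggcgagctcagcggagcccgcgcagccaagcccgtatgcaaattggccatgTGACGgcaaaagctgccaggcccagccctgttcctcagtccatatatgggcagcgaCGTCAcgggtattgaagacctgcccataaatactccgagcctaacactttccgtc
Nr4a1: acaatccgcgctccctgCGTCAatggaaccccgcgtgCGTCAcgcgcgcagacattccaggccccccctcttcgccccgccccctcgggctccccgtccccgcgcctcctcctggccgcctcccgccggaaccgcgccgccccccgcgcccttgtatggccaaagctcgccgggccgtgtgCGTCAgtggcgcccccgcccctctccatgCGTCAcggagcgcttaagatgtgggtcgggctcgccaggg
Nr4a2: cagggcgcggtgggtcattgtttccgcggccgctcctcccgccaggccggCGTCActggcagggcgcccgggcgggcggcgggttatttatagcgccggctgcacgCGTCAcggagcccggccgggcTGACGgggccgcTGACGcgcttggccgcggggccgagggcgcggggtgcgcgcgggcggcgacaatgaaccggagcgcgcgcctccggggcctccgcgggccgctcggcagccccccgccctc
Nr4a3: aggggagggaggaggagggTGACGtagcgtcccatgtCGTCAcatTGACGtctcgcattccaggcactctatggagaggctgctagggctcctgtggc

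Nr4a1 and Nr4a2 each held 4 half-sites, Nr4a3 held 3 in its shorter window, and Egr2 held 2, while 2 of its other 4 windows held none. Of 32851 RefSeq promoter windows of 250 bases, 17.8% held at least 1 half-site on either strand, 3.90% at least 2, 0.688% at least 3 and 0.137% at least 4. The full element TGACGTCA, in 1.55% of windows, was in none of the 4. A CArG box, the element bound by serum response factor, was found in Egr2 as CCATATATGG, 72 to 63 bases before the start, against 1.47% of windows. Nr4a1 held the EGR element GCGGGGGCG on its reverse strand, 60 to 52 bases before the start, against 2.57% of windows, and its sister element GCGTGGGCG (0.536% of windows) was in none of the 4. The NR4A response element AAAGGTCA, in 1.34% of windows, was absent from these 4 windows. Matches of letters describe the sequence and do not show binding.

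Each member had its own order of named cell classes, in which the unnamed cells were not ranked. In CON, Egr1 was highest in PCY-like cells at 4159 CPM (4046 to 4274) and in FB-like cells at 3434 CPM (3411 to 3458), followed by 3141 CPM in the myogenic progenitor-like cells. It was lowest in LYM-like cells at 194 CPM and in melanocyte-like cells at 189 CPM, whose intervals overlapped. In UV and Rux PCY-like cells led the named classes of at least 50 cells, at 2022 and 2014 CPM. The myogenic progenitor-like cells fell below that number there. They had 2743 CPM (2494 to 3010) on 49 cells in UV, above PCY-like cells, and 1846 CPM (1626 to 2088) on 29 cells in Rux. FB-like cells came after KB-like cells in both libraries (1198 against 1476 CPM in UV, 1295 against 1333 CPM in Rux).

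Egr2 was highest in SCH-like cells in all 3 libraries, at 234 (189 to 287), 198 (164 to 238) and 204 CPM (162 to 255) in CON, UV and Rux. The next named class had 54.2 CPM in CON (sebaceous gland-like), 99.4 CPM in UV and 70.9 CPM in Rux (both KB-like). Unnamed cells had 69.7, 48.3 and 52.3 CPM in CON, UV and Rux, and held 4423 of the 6979 Egr2 UMIs of CON. FB-like cells had 20.1, 9.56 and 11.4 CPM, and LEC-like cells 7.98, 5.22 and 3.26 CPM.

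Egr3 was highest in sebaceous gland-like cells of CON at 615 CPM (583 to 650) and in mast cell-like cells, at 424 (296 to 590), 698 (621 to 782) and 896 CPM (824 to 974) in CON, UV and Rux. In CON the intervals of these leading classes overlapped, and the sebaceous class had fewer than 50 cells in the other libraries. HF-like cells had 218, 149 and 148 CPM, whereas MYE-like and LYM-like cells stayed between 8.79 and 23.3 CPM. Unnamed cells had 241, 164 and 152 CPM in CON, UV and Rux, and held 15266 of the 24176 Egr3 UMIs of CON.

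Nr4a1 was highest in mast cell-like cells (1092, 855 and 1496 CPM in CON, UV and Rux), followed by PCY-like cells in CON (946 CPM) and SCH-like cells in UV and Rux (644 and 1043 CPM). In CON the mast cell-like and PCY-like intervals overlapped, and in UV and Rux the SCH-like and PCY-like intervals did. Nr4a2 was highest in SCH-like cells, at 1388 (1274 to 1509), 1282 (1192 to 1377) and 1373 CPM (1258 to 1496), with mast cell-like cells next at 1104, 647 and 1004 CPM. Those intervals overlapped in CON only.

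Nr4a3 was highest in mast cell-like cells in every library (946, 977 and 1149 CPM), and LYM-like cells had 318, 250 and 259 CPM. In Rux neutrophil-like cells had 317 CPM (278 to 359), which overlapped LYM-like cells. It was lowest in sebaceous gland-like cells in CON (6.60 CPM) and in HF-like cells in UV and Rux (24.4 and 21.6 CPM). Mast cell-like cells numbered 62, 171 and 210, and few of them reached 2000 UMIs (5, 61 and 82), so their CON levels rest on few counts, such as 78 UMIs of Nr4a3.

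**Figure D1:**
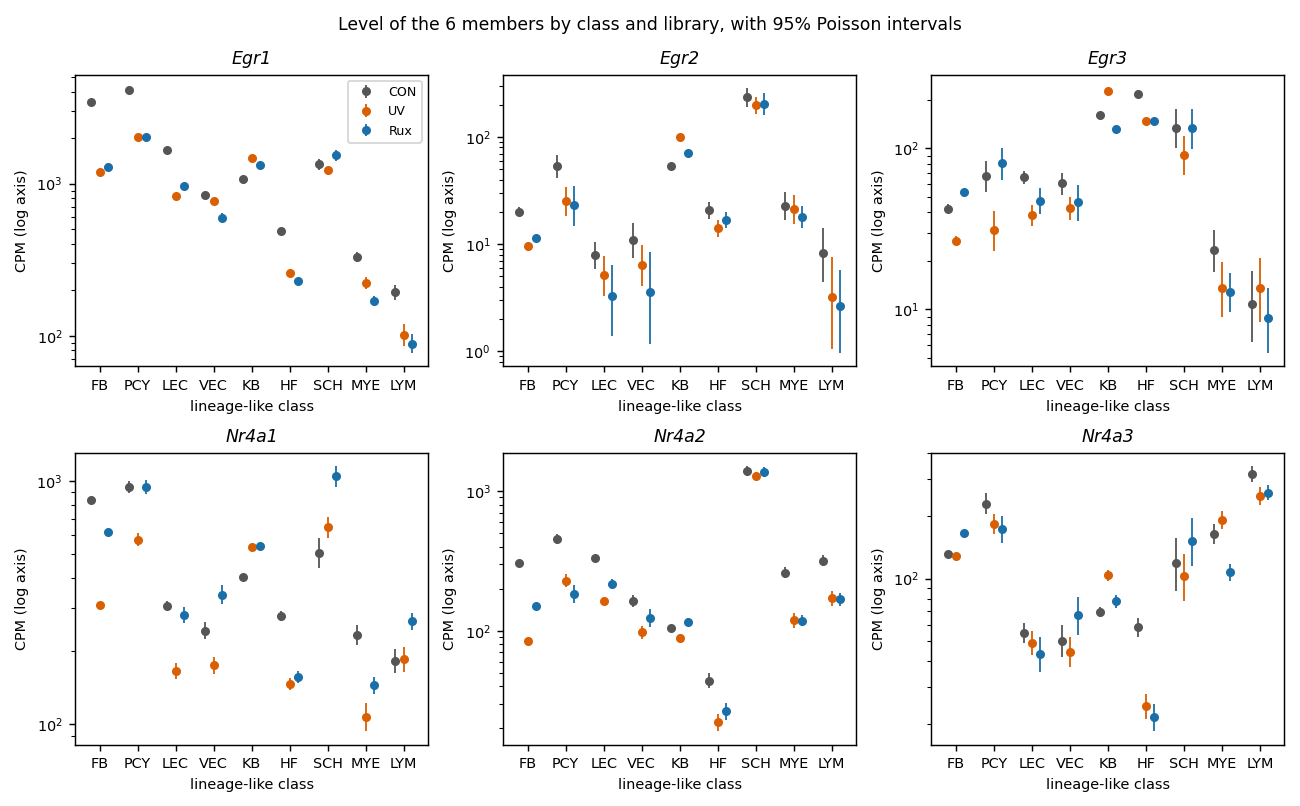
Level of each member (CPM, log axis) in the 9 classes of at least 100 cells per library, with exact 95% Poisson intervals; CON grey, UV orange, Rux blue. Egr2 and Nr4a2 are highest in SCH-like cells and Nr4a3 in LYM-like cells, and in FB-like cells the CON point of Egr1 (3434 CPM) stands above UV (1198 CPM) and Rux (1295 CPM).

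FB-like cells, with 3403, 5099 and 5052 cells in CON, UV and Rux, had the largest UMI total over all genes among the named classes. Egr1, which responds to serum and wounding, was 3434 CPM in CON, 1198 CPM in UV (1187 to 1209) and 1295 CPM in Rux (1286 to 1304). It was high in CON alone, and the log2 ratio of UV over CON was −1.52 (−1.54 to −1.50) and that of Rux over UV 0.11 (0.10 to 0.13). Egr2 at 20.1, 9.56 and 11.4 CPM had log2 ratios of −1.07 (−1.27 to −0.88) and 0.25 (0.07 to 0.44). With subclusters weighted as in CON, Rux over UV turned to −0.07 for Egr1 and −0.55 for Egr2. Egr3 at 42.3, 26.8 and 53.9 CPM had log2 ratios of −0.66 (−0.79 to −0.54) and 1.01 (0.91 to 1.11), so that it was lowest in UV and highest in Rux.

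Among the NR4A genes, Nr4a1 had 835 CPM in CON (823 to 846), 310 CPM in UV (304 to 315) and 615 CPM in Rux (609 to 622), with log2 ratios of −1.43 (−1.46 to −1.40) for UV over CON and 0.99 (0.96 to 1.02) for Rux over UV. Rux lay between UV and CON (log2 −0.44 against CON). But it lay above CON when the fibroblasts were weighted to the subclusters of CON (0.41) or to its parts by dissociation share (0.42). Without the subcluster led by Gadd45g it lay above CON by 0.03. That subcluster took 35.0% of the weight in the subcluster weighting but held 27 Rux cells. Nr4a2 at 308, 85 and 149 CPM had log2 ratios of −1.86 (−1.92 to −1.80) and 0.81 (0.76 to 0.87), the lowest ratio of UV over CON of the 6 members. Nr4a3 at 132, 128 and 166 CPM had −0.04 (−0.10 to 0.03) and 0.37 (0.32 to 0.42). Its UV and CON levels in the class as a whole were not distinguishable by counting error. Against CON, Rux had log2 ratios of −1.41 for Egr1, −0.82 for Egr2, 0.35 for Egr3, −0.44 for Nr4a1, −1.04 for Nr4a2 and 0.34 for Nr4a3. The contrasts share libraries, so a low UV value enters both.

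In FB-like cells 4 of 6 members (Egr1, Egr2, Nr4a1, Nr4a2) were at least 2-fold lower in UV than in CON, beside 2.17% of the 8383 genes whose mean reached 10 CPM. Egr3 was the 1 member at least 2-fold higher in Rux than in UV, with Nr4a1 just short of it (1.99-fold), beside 0.698% of 8163 genes. Egr1 and Nr4a2 were at least 2-fold lower in Rux than in CON, beside 3.5% of 8352 genes. The median log2 ratio over the 6 members was −1.25 for UV over CON, 0.59 for Rux over UV and −0.63 for Rux over CON, beside −0.11, 0.03 and −0.08 over all genes. Among all genes ordered by UV over CON, Nr4a2 stood at percentile 0.251, Egr1 at 0.537, Nr4a1 at 0.656 and Nr4a3 at 58.6. By Rux over UV, Egr3 and Nr4a1 stood at percentile 99.3 and Nr4a2 at 98.5, while Egr1 stood at 64.1. When UV and Rux fibroblasts were weighted to the subclusters of CON, these medians were −0.52, 0.48 and −0.08, those against CON being nearer to 0 by over 1.5 times. That weighting left out a subcluster with 0, 16 and 471 cells in CON, UV and Rux, and in Rux 35.0% of the weight rested on 27 cells.

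Markers of other cell types were also counted in FB-like cells. The summed KB markers were 251, 106 and 106 CPM in the FB-like class of the 3 libraries in that order, the summed myeloid markers 47.8, 24.7 and 28.8 CPM and the summed haemoglobin and other red-cell markers 51.4, 63.1 and 126 CPM, beside 33441, 25721 and 25577 CPM of the FB markers themselves. Their part in the member values was not tested.

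Outside fibroblasts, Nr4a1 was the member most often higher in Rux than in UV. In VEC-like cells it had 243, 175 and 341 CPM in CON, UV and Rux, with log2 ratios of −0.47 (−0.63 to −0.31) for UV over CON and 0.96 (0.78 to 1.14) for Rux over UV. In LEC-like cells the levels were 307, 166 and 282 CPM (−0.89 and 0.76), in PCY-like cells 946, 574 and 942 CPM (−0.72 and 0.71) and in SCH-like cells 506, 644 and 1043 CPM (0.35 and 0.70). In these classes Rux was above UV by more than counting error, and in SCH-like cells alone UV was also above CON. LYM-like cells had 182, 185 and 266 CPM (0.02 and 0.52) and MYE-like cells 233, 107 and 145 CPM (−1.12 and 0.43). HF-like cells had 278, 147 and 157 CPM, and there Rux over UV was 0.10 with an interval of −0.02 to 0.21.

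Egr1 was lower in UV than in CON in PCY-like cells (4159 to 2022 CPM, log2 −1.04), LEC-like cells (1677 to 835 CPM, −1.01), LYM-like cells (194 to 101 CPM, −0.93), HF-like cells (487 to 258 CPM, −0.92) and MYE-like cells (329 to 224 CPM, −0.56). Rux did not stand above UV in PCY-like cells (−0.01, −0.09 to 0.08) stood below it in MYE-like (−0.39) and VEC-like cells (−0.36), and stood above it in LEC-like (0.20, 0.13 to 0.28) and SCH-like cells (0.34, 0.17 to 0.49). SCH-like cells had 1345, 1222 and 1541 CPM, and their interval for UV over CON held 0. The VEC-like class was made of 2 clusters that went different ways for Egr1. In the cluster led by Selp, Sele and Vwf, adhesion and clotting genes of venules, Egr1 was 785, 446 and 618 CPM, whereas in that led by Gpihbp1, Fabp4 and Cd36, lipid-handling genes of capillaries, it was 1053, 1226 and 548 CPM.

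Nr4a2 was lower in UV than in CON in MYE-like (261 to 119 CPM, −1.14), LEC-like (334 to 163 CPM, −1.03), HF-like (44.0 to 22.1 CPM, −0.996), PCY-like (453 to 228 CPM, −0.99), LYM-like (318 to 171 CPM, −0.90) and VEC-like cells (163 to 97.4 CPM, −0.74). In SCH-like cells, where it was most abundant, the ratio was −0.12 (−0.28 to 0.05). Rux over UV was 0.40 in LEC-like cells and 0.35 in VEC-like cells, both above 0 by their intervals, but −0.02 in LYM-like, −0.01 in MYE-like and −0.32 in PCY-like cells, where a stricter filter on cells gave 0.012. In VEC-like cells a clustering resolution of 0.8 gave −0.02.

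Nr4a3 was lower in UV than in CON in HF-like (58.3 to 24.4 CPM, −1.25), LYM-like (−0.35) and PCY-like cells (−0.32). Both clusters of HF-like cells were lower (−1.08 and −1.14), although their cells were shared unevenly (152, 164 and 105 against 50, 152 and 166) and the summed HF markers were 4423, 9366 and 11200 CPM. Of the LYM-like clusters, that led by Icos (140, 185 and 294 cells) had −0.01 (−0.28 to 0.27) and that led by Gzmc (115, 57 and 66 cells) −0.59 (−0.90 to −0.30). In MYE-like cells it was 164, 191 and 107 CPM, with Rux below UV by −0.83 (−1.03 to −0.63). Egr3 in PCY-like cells was 67.6, 30.9 and 80.6 CPM, with a ratio of Rux over UV of 1.38 (0.85 to 1.92) on 80 against 50 UMIs. Egr2 had at most 73 UMIs per library in VEC-like, LEC-like, LYM-like, PCY-like and MYE-like cells, and Rux and UV were not distinguishable there.

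**Figure D2:**
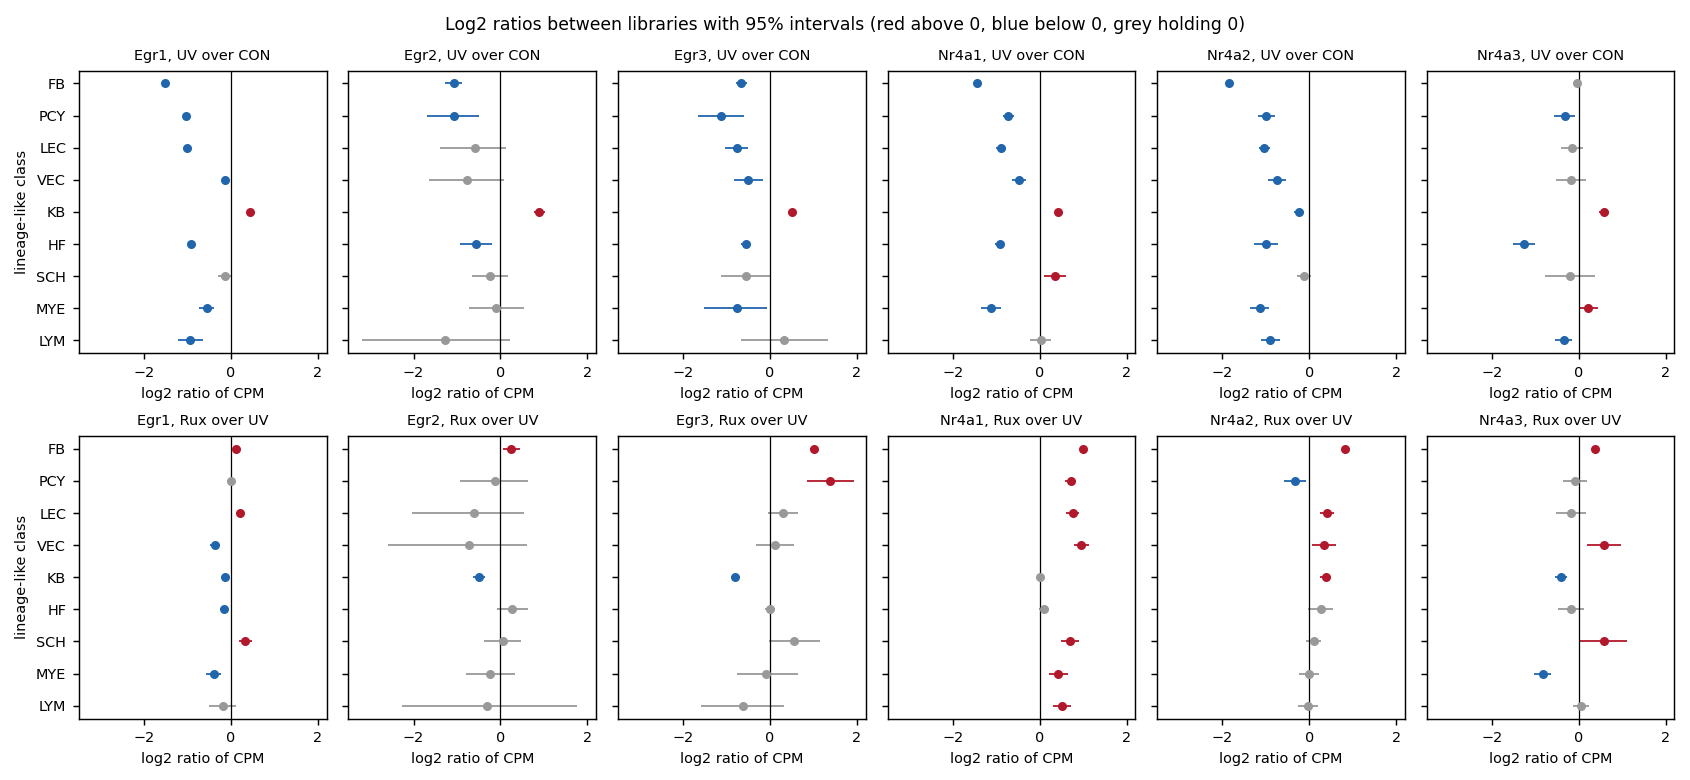
Log2 ratios of CPM for each member (columns) and contrast (rows) in the 9 classes, with 95% intervals. Red intervals lie above 0, blue below 0 and grey ones hold 0. Nr4a1 is below 0 for UV over CON and above 0 for Rux over UV in FB-like, PCY-like, LEC-like, VEC-like and MYE-like cells, and KB-like cells lie to the right of 0 for Egr1 in UV over CON (0.45).

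KB-like cells, with 1167, 456 and 543 cells, had UV above CON for 5 of 6 members. At least 2-fold higher were 0 of 6, beside 2.58% of 8968 genes. Among all genes ordered by UV over CON, the 5 stood between percentile 87.1 (Nr4a1) and 96.6 (Egr2). Egr1 was 1081, 1476 and 1333 CPM in CON, UV and Rux, Egr2 53.5, 99.4 and 70.9 CPM, Egr3 161, 228 and 131 CPM, Nr4a1 404, 537 and 539 CPM, and Nr4a3 69.3, 104 and 77.7 CPM. Nr4a2, at 105, 89.0 and 116 CPM, was lowest in UV. UV over CON was 0.45 for Egr1, 0.89 for Egr2, 0.50 for Egr3, 0.41 for Nr4a1, −0.24 for Nr4a2 and 0.58 for Nr4a3. These directions depended on which clusters the class held. A loose filter, no doublet removal, or clustering with the immediate-early genes gave the class other clusters, and the 5 values above 0 were then below 0 (Egr1 between −0.20 and −0.05, Nr4a3 between −0.73 and −0.51). In each of these settings a cluster led by Itga2 and Hist1h1b joined the class. In the last 2 the cells led by Fcgbp and Col17a1 (461, 15 and 57 cells) left it, and under the loose filter a cluster led by Lhx2 and Stmn1 (918, 253 and 126 cells) joined and that led by Pthlh left. Unnamed cells, a mix that held clusters with leading KB, HF or FB markers, had all 6 members lower in UV than in CON. Egr1 was 959 and 784 CPM there and Nr4a1 440 and 286 CPM. The part of each cluster was not tested.

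The KB-like clusters were therefore read one by one. The largest was led by Gm973, Il31ra and Lgr5, the last a marker of hair follicle stem cells, and had 568, 225 and 110 cells. There Egr1 was 1144, 1625 and 1885 CPM and Nr4a1 381, 650 and 910 CPM, so that both were lowest in CON and highest in Rux. Nr4a2 followed at 112, 147 and 246 CPM. In the cluster led by Pthlh, Krt6a and Sox9 (66, 98 and 185 cells), Egr1 was 940, 1255 and 830 CPM, but Nr4a1 was 190, 138 and 178 CPM and Nr4a2 44.9, 14.0 and 43.7 CPM. In the dividing cells led by Top2a and Cenpf (66, 75 and 50 cells), Egr1 was 958, 1180 and 775 CPM and Nr4a2 126, 31.9 and 81.4 CPM. Egr1 was thus above CON in UV in all 3 of these clusters, and Nr4a2 was below CON in 2 of them. The other KB-like clusters had 15 and 43 cells in UV and 461 and 6 in CON, too uneven to compare.

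To set aside differences in the make-up of classes, each cluster with at least 50 cells in every library was compared with itself. In the 31 such clusters, UV was below CON by more than counting error for Nr4a1 in 23, Nr4a2 in 23, Egr1 in 22, Egr3 in 15, Nr4a3 in 15 and Egr2 in 13, and above it in 3, 1, 6, 4, 1 and 2. Nr4a1, Nr4a2 and Egr1 were below CON in at least 16 of the clusters, beside 3.01% of 9617 genes. Rux was above UV for Nr4a1 in 24 clusters and below it in 1, and for Nr4a2 in 17 and 2. These were the members above UV in at least 16 clusters, beside 1.58% of genes. Nr4a3 was above UV in 15, Egr3 in 10 and Egr2 in 1 (below in 4, 4 and 7), whereas Egr1 was above UV in 11 and below it in 15. Intervals narrow as UMIs rise, so an abundant gene is counted as different more readily than a scarce one. For Rux over UV the interval held 0 in 5 clusters for Egr1 and in 23 for Egr2. The shares of 3.01% and 1.58% mix abundant and scarce genes. How unusual the members are among genes of like abundance was not tested.

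The 8 FB-like clusters were all below CON in UV for Egr1 (log2 −2.10 to −0.27) and for Nr4a2 (−3.51 to −0.63), and 7 of them for Nr4a1 (−2.60 to −0.10). For Nr4a3 6 of them were below CON in UV and 2 not distinguishable (−1.01 to 0.24), unlike the class as a whole. All 8 were above UV in Rux for Nr4a1 (0.53 to 1.20). For Egr1 4 were above UV in Rux, 3 below it and 1 not distinguishable. The share of all genes with such counts was not computed for the FB-like clusters alone. The 20 other clusters were not all of other lineages, since they included unnamed clusters whose leading markers were those of FB or KB. They had UV below CON for Nr4a1 in 15 and for Egr1 in 14, and Rux above UV for Nr4a1 in 13. The share of all genes with such counts was not computed for them either. The cluster of B-cell and antigen-presenting genes (Igkc, Ighm, Cd74) was an exception for Egr1, at 123, 203 and 73.5 CPM.

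**Figure D3:**
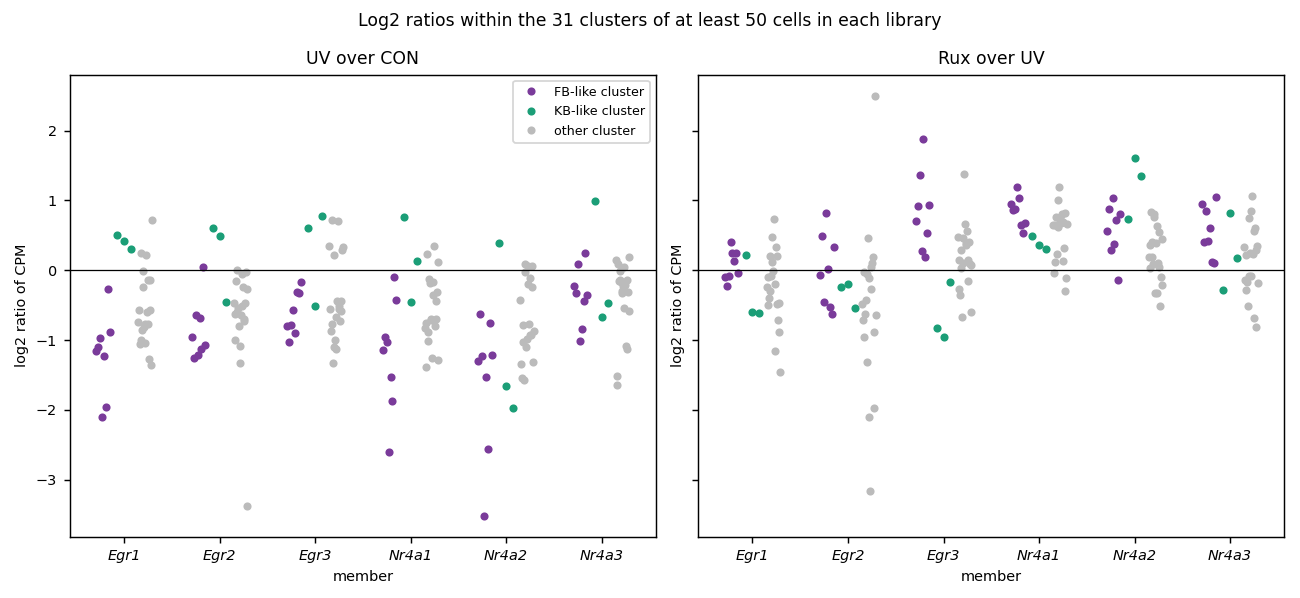
Log2 ratio of CPM of each member within the 31 clusters of at least 50 cells per library (points; FB-like purple, KB-like green, others grey), for UV over CON (left) and Rux over UV (right). All FB-like points of Egr1 and Nr4a2 lie below 0 on the left, and all FB-like points of Nr4a1 lie above 0 on the right.

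The share of cells that carried a member and the number of UMIs in the carriers both differed. After each FB-like cell was thinned to 2000 UMIs, which left 3261, 4849 and 4922 cells and left out 142, 250 and 130, Egr1 was found in 82.6% (81.2 to 83.9), 56.3% (54.8 to 57.7) and 58.2% (56.8 to 59.6) of cells in CON, UV and Rux, with a mean of 8.15, 4.23 and 4.43 UMIs in the cells that had it. Nr4a1 was found in 58.9%, 31.6% and 50.4% of cells with 2.72, 1.93 and 2.49 UMIs each. The share for Nr4a2 was 30.5%, 11.1% and 18.7%, that for Nr4a3 18.7%, 17.2% and 22.3%, that for Egr3 6.62%, 4.39% and 7.72%, and that for Egr2 3.43%, 1.71% and 1.89%. Without thinning, Egr1 was found in 91.6%, 78.2% and 84.1% of cells, at median depths of 6169, 7399 and 10011 UMIs. Red-cell-like cells, which should lack these genes, had Egr1 in 33.3%, 17.6% and 15.0% of 6, 17 and 20 thinned cells. Nr4a1 was found in 33.3%, 5.88% and 20% of them, and the part of free RNA in these counts was not tested. Nr4a2 was found in 16.7%, 11.8% and 0% of them, and its UV share in FB-like cells did not exceed theirs, a comparison that rests on the same few cells. Nr4a3 was found in 0 of 6, 1 of 17 and 1 of 20 of them, and for 1 of 17 the exact interval reaches 28.7%, above its share in FB-like cells of UV. For Egr2, Egr3 and Nr4a3 these few cells therefore set no useful background. Even 0 of 17 UV cells allows a share of about 17.6%, a limit taken as 3 counts over 17 cells and not an exact bound. The median depth of the red-cell-like cells before thinning was 2338, 1889 and 1148 UMIs.

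In SCH-like cells the shares of Nr4a2 and Egr2 were steadier, whereas the level of Nr4a1 was 506, 644 and 1043 CPM in CON, UV and Rux. Nr4a2 was found in 75.8%, 76.5% and 72.7% of 99, 132 and 88 thinned cells and Egr2 in 29.3%, 31.1% and 29.5%, and each triplet had overlapping intervals. At least 3 of the 6 members were found together in 57.6%, 50.8% and 52.3% of SCH-like cells, against 32.6% (31 to 34.3), 11.2% (10.3 to 12.1) and 21.5% (20.4 to 22.7) of FB-like cells. None of the 6 was found in 8.68%, 26.8% and 19.0% of FB-like cells. In FB-like cells Egr1 and Nr4a1 were found together in 53.5%, 23.3% and 35.9% of cells, which was 1.10, 1.31 and 1.22 times the product of their shares. Nr4a1 and Nr4a2 were together 1.26, 1.66 and 1.37 times as often as the product, and Egr2 and Egr3 2.16, 2.47 and 1.81 times, the latter on 16, 9 and 13 cells. The larger the shares, the lower the highest ratio that is possible, so these ratios do not compare the libraries.

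FB-like cells were clustered again without the member, immediate-early and dissociation genes, which gave 13 subclusters, 9 of them with enough cells in each library for a comparison. Nr4a2 was below CON in UV in all 9, Egr1 and Nr4a1 in 8 each, Egr3 in 5, Egr2 in 4 and Nr4a3 in 4, with Nr4a3 above CON in 3 and Egr1 in 1. Rux was above UV for Nr4a1 in 8, for Nr4a2 in 7, for Egr1, Egr3 and Nr4a3 in 6 each and for Egr2 in 1. Rux was below UV for Nr4a2 and Egr1 in 2 each, for Nr4a3 and Egr2 in 1 each and for Nr4a1 and Egr3 in 0. The share of all genes with such counts over the subclusters was not computed. In the subcluster led by Dtna and Arhgap20 the difference was widest for Egr1, at 3259, 535 and 829 CPM in CON, UV and Rux. Nr4a1 there was 1149, 191 and 436 CPM and Nr4a2 82.9, 10.1 and 24.9 CPM. The subcluster led by Thbs4 and Col8a1, matrix genes, had Nr4a1 at 256, 212 and 675 CPM, with Rux far above both. That led by Pecam1 and Pde4c was the 1 with Egr1 above CON in UV, at 1389, 1572 and 1122 CPM.

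The subclusters were not shared evenly. The one led by Gadd45g, Socs3 and Zfp36 held 1190, 247 and 27 cells, or 35.0%, 4.84% and 0.534% of the FB-like class in CON, UV and Rux. Its leading genes are stress and cytokine-feedback genes and also held Cebpd, Junb and Egr1 itself. Of these, Socs3, Zfp36, Cebpd and Junb are in the dissociation list. Egr1 was highest there, at 6029, 4446 and 3974 CPM, so its level is not apart from what marks the subcluster. Nr4a1 there was 1290, 876 and 1927 CPM. Without the Gadd45g subcluster the median log2 ratio of the 6 members in FB-like cells was −1.06 for UV over CON, 0.66 for Rux over UV and −0.34 for Rux over CON. Weighting subclusters as in CON gave it 35.0% of the weight in each library, which in Rux rested on 27 cells. A subcluster led by the acute-phase genes Saa3, Hp and Lcn2 held 0, 16 and 471 cells. It took no weight in that weighting and could not be compared with CON.

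**Figure D4:**
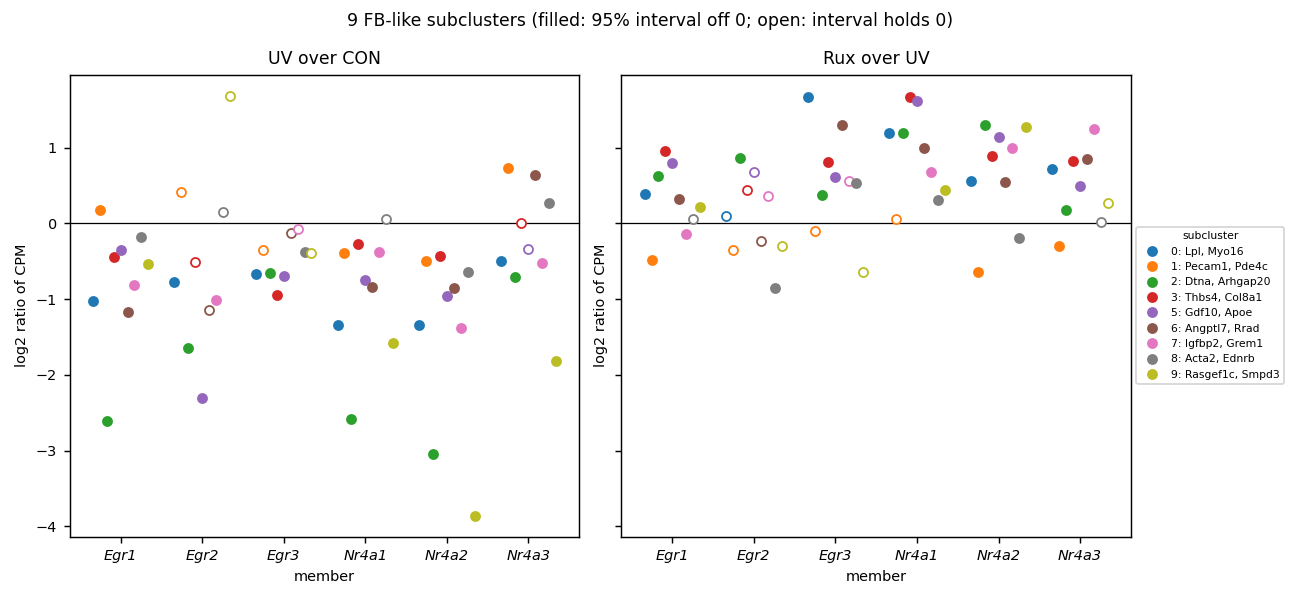
Log2 ratio of CPM of each member in 9 FB-like subclusters (colours), for UV over CON (left) and Rux over UV (right); filled points have a 95% interval off 0 and open points an interval that holds 0. All points of Nr4a2 lie below 0 on the left, down to −3.86, and all points of Nr4a1 lie above 0 on the right.

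Genes of the dissociation response were also lower in FB-like cells of UV and Rux than of CON. A list of 30 such genes, which holds none of the 6 members but other immediate-early genes such as Fos and Junb, summed to 43329 CPM in FB-like cells of CON, 27934 CPM in UV and 24710 CPM in Rux. Its median share of a cell's UMIs was 4.06%, 2.61% and 2.29%. The median log2 ratio of UV over CON over the list was −0.58, with 28 of 30 genes below 0 beside 5261 of all 8383, and that of Rux over UV was 0.01, with 15 of 30 above 0. In KB-like cells, where Egr1 was higher in UV, the list's share was also higher in UV, at 1.71%, 2.19% and 1.74%. It was lower in UV than in CON in PCY-like (4.06%, 2.72% and 2.57%), LEC-like (3.37%, 2.61% and 2.29%) and MYE-like cells (1.88%, 1.36% and 1.45%), and in SCH-like cells it was 3.16%, 2.64% and 3.41%. The heat shock genes alone differed less in FB-like cells, with sums of 4474, 3999 and 3628 CPM.

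FB-like cells of all libraries were ranked by the list's share and split into 5 equal parts to set cells of more like share beside each other. In the highest part the shares still differed, at 6.48%, 5.47% and 5.22% of UMIs in CON, UV and Rux. The highest part held 45.7% of the CON cells but 13% of UV and 9.76% of Rux, and the lowest 13.8%, 18.8% and 25.4%. Egr1 went up with the share in every library, from 733, 447 and 358 CPM in the lowest part to 5398, 3906 and 4102 CPM in the highest. From the lowest to the highest part, the log2 ratio of UV over CON was −0.71, −1.40, −1.48, −0.76 and −0.47 for Egr1, −1.002, −1.35, −1.31, −0.74 and −0.43 for Nr4a1 and −1.63, −2.35, −2.34, −1.45 and −0.89 for Nr4a2. Each was below 0 by its interval and, for Egr1, nearer to 0 than the −1.52 of all FB-like cells in every part. Nr4a3 was at or above CON in UV in each part, at 0.07, 0.36, 0.21, 0.22 and 0.16, with an interval that held 0 in the lowest.

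Rux over UV within these parts was 0.96, 1.40, 1.55, 1.37 and 0.85 for Nr4a1, beside 0.99 in all FB-like cells. The list holds immediate-early genes such as Fos and Junb, and Socs3, a feedback inhibitor of JAK signalling. A like share therefore need not mean a like dissociation stress, and the part of dissociation in these ratios was not tested. For Egr3 it was 1.17, 0.97, 1.09, 1.17 and 0.81, and for Nr4a2 0.48, 1.31, 1.35, 0.81 and 0.67. Egr1 was not uniform, at −0.32, 0.19, 0.86, 0.62 and 0.07. Weighting the parts as in CON, which was tried after seeing the data, gave medians over the 6 members of −0.57 for UV over CON, 0.68 for Rux over UV and 0.00197 for Rux over CON. It put 45.7% of the weight on the highest part, where the shares still differed between libraries. Dissociation was done once per library, and its time and handling cannot be told apart from the condition.

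**Figure D5:**
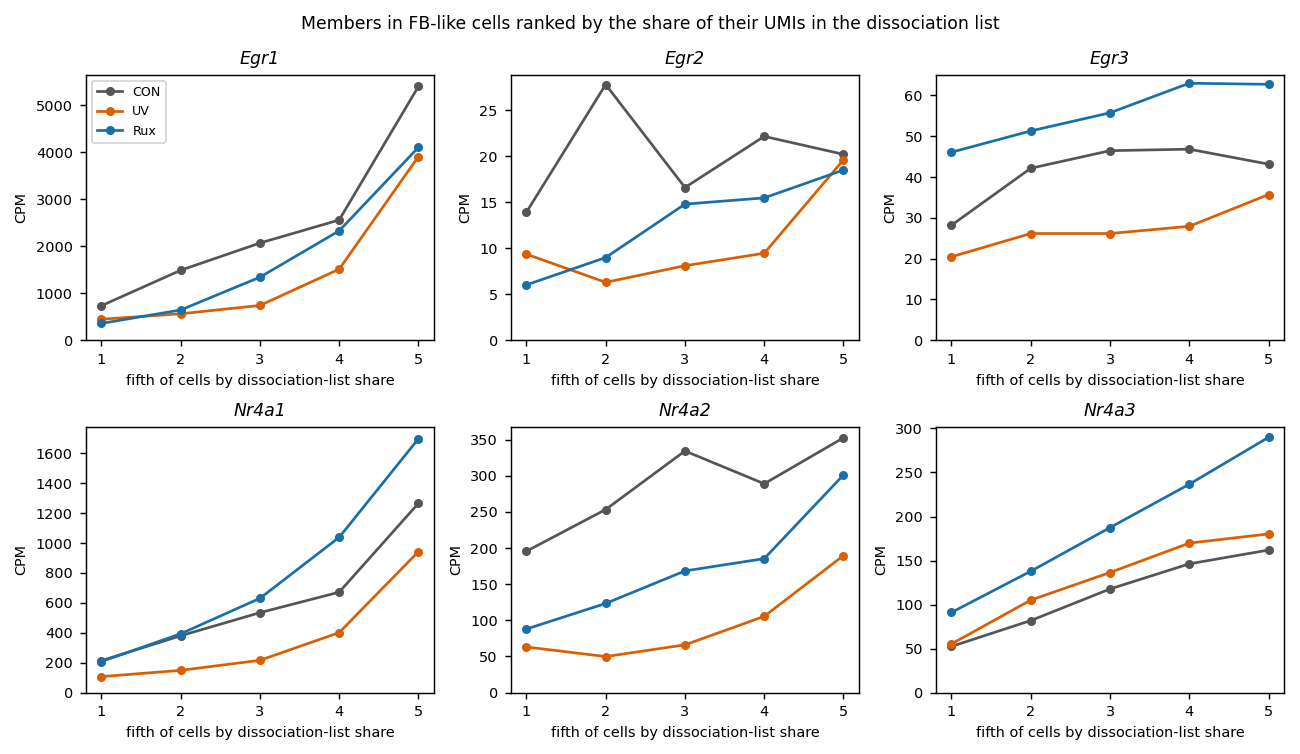
Level of each member (CPM) in FB-like cells in 5 equal parts of the cells ranked by the share of their UMIs in the dissociation list (1 lowest, 5 highest); CON grey, UV orange, Rux blue. Egr1 climbs with the share in all libraries, to 5398, 3906 and 4102 CPM in part 5, and Nr4a1 in Rux is above UV in each part.

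The rest of the pathway was read from lists in FB-like cells, among genes whose mean reached 10 CPM. All 4 measured partners had a ratio of UV over CON below 0, as had 5261 of all 8383 genes, with a median log2 ratio of −0.35. They were the EGR co-repressors Nab1 (77.2 and 51.9 CPM, −0.57) and Nab2 (16.0 and 13.4 CPM, −0.26) and the retinoid X receptors Rxra (−0.43) and Rxrb (−0.19), which pair with NR4A1 and NR4A2. The upstream factors stood near all genes, with a median of −0.05, 7 of 11 below 0 and 4 above. Lowest were the cyclic AMP modulator Crem (38.8 and 20.8 CPM, −0.90), Mef2c (−0.68), Srf (13.5 and 10.1 CPM, −0.42) and Creb1 (−0.23), and highest Mrtfb (53.0 and 73.0 CPM, 0.46), Mrtfa (0.21), Atf1 (0.17) and Mef2a (0.16). No list has a test here, and each median stands beside −0.11 over all genes.

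Feedback genes of the MAP kinase pathway, which signals to EGR genes, had a median of −0.73 for UV over CON, with 5 of 7 below 0, beside 5261 of all 8383 genes. The lowest were the ERK phosphatase Dusp6 (28.0 and 11.3 CPM, −1.31), the receptor signalling inhibitor Spry1 (40.2 and 18.8 CPM, −1.10), Ier3 (966 and 513 CPM, −0.91) and Dusp5 (101 and 61.0 CPM, −0.73), and the highest were Spry2 (0.18), Spred1 (0.04) and Dusp1 (−0.56). For Rux over UV the list's median was −0.03, with Dusp1 highest at 0.63 (598 to 925 CPM).

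The other immediate-early genes had a median of −0.52 for UV over CON, with 19 of 22 below 0 and 3 above, beside 5261 of all 8383 genes below 0. Lowest were the mRNA-decay factor Zfp36 (2654 and 967 CPM, −1.46), the AP-1 subunits Junb (3779 and 1429 CPM, −1.40) and Fos (3757 and 1723 CPM, −1.12), and Ier2 (−1.38). Highest were Fosl1 (101 and 138 CPM, 0.45), Ier5 (0.29), Klf4 (0.06) and Fosb (1813 and 1804 CPM, −0.01). Over the class as a whole Fosb, like Nr4a3, thus had about the same level in CON and UV. For Rux over UV the list had a median of 0.11, with Fos at 0.12, Junb at −0.04 and Zfp36 at −0.0035, beside 0.99 for Nr4a1. In the dissociation list, Hspb1 (0.22), Fosb and Hsp90aa1 (−0.03) were among the highest for UV over CON, and Zfp36, Junb and Ier2 were again among the lowest. Socs3, a feedback inhibitor of JAK signalling, was 890, 427 and 131 CPM in CON, UV and Rux and was named after its values were seen.

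Over the 27 profiles of 9 classes in 3 libraries, the genes of the 9723 tested whose levels were most like Egr1 were Fos (Pearson r = 0.92), Hes1 (0.92) and Klf9 (0.91). For Egr2 they were Ldhb (0.90), Adgrl3 (0.88) and Sdc4 (0.87), for Egr3 Fubp3 (0.94), Bok (0.93) and Abcd3 (0.93), for Nr4a1 Rab11fip2 (0.91), Klhl26 (0.88) and Kirrel (0.87), for Nr4a2 Clip2 (0.90), Lpin1 (0.90) and Il16 (0.86), and for Nr4a3 Lgals1 (0.88), Tmtc2 (0.85) and Tent5a (0.85). Among the members themselves Egr1 and Nr4a1 were most alike (0.79), and Egr3 and Nr4a3 least (−0.55). Profiles of 1 library share depth and handling, and the 3 profiles of a class share a cell type, so these values are descriptions.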

How the data were processed

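Dorsal skin cells of 3 libraries (CON, UV, Rux; 1 each) were analysed. The authors deposited raw UMI counts per gene and cell as Cell Ranger wrote them, without normalization; the file headers name version 7.0.0 and the submitters' processing notes version 6.1.2, with the mm10 build. Cells that had 200 genes or more and no more than 10% mitochondrial UMIs were kept, and the top Scrublet scores (scanpy 1.11.5, Python 3.11.15) were removed at 0.8% per 1000 cells. This removed 1161, 1032 and 836 cells. Seurat 5.3.0 in R 4.3.3 (LogNormalize, 2000 variable genes, 30 principal components, resolution 1.5, no batch correction) clustered the cells, with 60 immediate-early, feedback, dissociation and heat shock genes left out of the variable genes. FB-like cells were clustered again (20 components, resolution 0.5). A cluster was named when at least 3 of a lineage's markers were each detected in at least 10% of its cells and their score was above average. No other lineage could come within 1 log2 unit of the leading score while scoring above −0.25. Clusters whose top genes held more markers of another lineage stayed unnamed. So did those of low depth (below 1/3 of the library median) without their own markers among the top genes. The cluster led by Mgp and Gdf10 (606, 617 and 491 cells) had leading FB markers and was unnamed for low depth.

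Counts were summed per class and library, and ratios had 0.5 UMI added to each sum (numpy 2.4.6, scipy 1.17.1, pandas 2.3.3). CPM is relative, so a gene of high level lowers all others. For shares each cell was thinned to 2000 UMIs. The intervals were tried on simulated Poisson counts for UV over CON with 200 genes changed 2-fold. The simulation held no variation between cells, mice or libraries. It shows what depth alone allows and does not check the intervals on the real data. In FB-like cells (8383 genes) the interval lay on the right side of 0 for 100% of them, and in SCH-like cells (9065 genes) for 54.5%. No test across samples was made, since a condition had 1 library, so that condition and library cannot be told apart.

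The members and gene lists were chosen with earlier results of these data known. List genes were named when among the 4 lowest or 4 highest ratios of UV over CON in the FB-like class, given a mean level of 10 CPM or more, and for likeness the 3 genes of highest Pearson r of log2(CPM + 1). A gene that this rule names in the dissociation list is not reported here. Alternatives were other filters on cells, no doublet removal, other resolutions, the immediate-early genes kept for clustering, other scalings and weights, and other thinning. Promoter sequences came from RefSeq in GRCm38.p6, and gene coordinates from the GRCm38 annotation. Figures were drawn with matplotlib 3.10.9.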

Additional observations from a re-analysis of the deposited data

Results flagged for a closer look

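FB-like and KB-like cells went opposite ways for several members under the same contrast, with both 95% intervals off 0. The difference between the classes was not tested, since each condition had 1 library. For UV over CON, the ratios in FB-like and KB-like cells were −1.52 and 0.45 for Egr1, −1.07 and 0.89 for Egr2, −0.66 and 0.50 for Egr3, and −1.43 and 0.41 for Nr4a1. For Rux over UV they were 0.11 and −0.15 for Egr1, 0.25 and −0.49 for Egr2, 1.01 and −0.80 for Egr3, and 0.37 and −0.42 for Nr4a3. For Rux over CON they were −1.41 and 0.30 for Egr1, −0.82 and 0.41 for Egr2, 0.35 and −0.30 for Egr3, −0.44 and 0.42 for Nr4a1, and −1.04 and 0.14 for Nr4a2. The dissociation list took a median share of 4.06%, 2.61% and 2.29% of UMIs in the FB-like class (CON, UV and Rux in that order) and 1.71%, 2.19% and 1.74% in KB-like cells. It was thus lower in UV than CON in FB-like cells and higher in KB-like cells, but lower in Rux than UV in both, and its part in these differences was not tested. Some FB-like signs changed with the setting. With subclusters weighted as in CON, Rux over UV was −0.0704 for Egr1 and −0.545 for Egr2 in FB-like cells. Nr4a1 for Rux over CON was 0.406 there, 0.416 with parts by dissociation share weighted as in CON and 0.0257 without the Gadd45g subcluster. The KB-like signs did not hold under every setting either. For UV over CON, Egr1, Egr2, Egr3, Nr4a1 and Nr4a3 were below 0 with a loose filter on cells, without doublet removal and with the immediate-early genes kept for clustering (Egr1 −0.203, −0.0515 and −0.062), and Egr2, Nr4a2 and Nr4a3 were below 0 for Rux over CON in the same settings. Egr1 in Rux over UV was above 0 in all 3. In the clusters of the class as reported, the values for UV over CON kept their sign for Egr1 in each of the 3 KB-like clusters with at least 50 cells per library (0.51, 0.42 and 0.30), whereas Nr4a1 had 0.77, −0.46 and 0.13 in them.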

How the results depend on the processing

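The median over the 6 members in FB-like cells (−1.25 for UV over CON, 0.594 for Rux over UV, −0.632 for Rux over CON) was recomputed under 12 alternatives for each of the 3 contrasts. Of these 36 values 25 stayed within the counting interval (the mean of the bounds of the middle members), 10 lay outside it and 1 had the other sign. Median-of-ratios scaling gave −0.484 for Rux over CON, and equal weight per cell 0.686 for Rux over UV. Subclusters weighted as in CON gave −0.516, 0.475 and −0.0783 for the 3 contrasts in that order. In Rux 35.0% of that weight rested on 27 cells of the subcluster led by Gadd45g, and the subcluster led by Saa3, without CON cells, was left out. Of the alternatives chosen after seeing the data, weighting 5 equal parts by dissociation share as in CON gave −0.566, 0.681 and 0.00197, and leaving out the subcluster led by Gadd45g gave −1.06, 0.655 and −0.341. Of the other values, 1164 stayed, 231 moved and 39 changed sign, and the cause was not tested. In KB-like cells the loose filter gave, for UV over CON, −0.203 (Egr1), −0.136 (Egr2), −0.225 (Egr3), −0.449 (Nr4a1) and −0.726 (Nr4a3), for Rux over UV 0.077 (Egr1), and for Rux over CON −0.126 (Egr1), −0.590 (Egr2), −0.139 (Nr4a1), −0.174 (Nr4a2) and −0.814 (Nr4a3). Without doublet removal the same genes gave −0.0515, −0.158, −0.265, −0.184 and −0.594 for UV over CON, 0.0739 for Egr1 in Rux over UV, and −0.365 (Egr2), −0.238 (Nr4a2) and −0.653 (Nr4a3) for Rux over CON. With the immediate-early genes kept for clustering they gave −0.062, −0.124, −0.239, −0.0988 and −0.515, then 0.115, and then −0.355, −0.0974 and −0.620. In all 3 settings several clusters joined or left the class. In FB-like cells Nr4a1 for Rux over CON was 0.406 with subclusters weighted, 0.416 with the 5 parts weighted and 0.0257 without the Gadd45g subcluster, and with subclusters weighted Egr1 and Egr2 for Rux over UV were −0.0704 and −0.545. Single values that changed sign were 0.0117 for Nr4a2 in PCY-like cells (Rux over UV, strict filter), −0.0216 for Nr4a2 in VEC-like cells (Rux over UV, resolution 0.8) and −0.0787 for Egr1 in SCH-like cells (Rux over CON, doublets kept). Each cell given equal weight, Egr1 was −0.0657 in LEC-like cells (Rux over UV) and 0.154 in VEC-like cells (UV over CON). Depth limits SCH-like cells most, where ratios of members with few UMIs have wide intervals. No paired analysis was possible because each condition had 1 library.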
